A study of Homo sapiens with 6 samples.

Results

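*DKK1* is the secreted Wnt inhibitor that gave the Dickkopf (DKK) family its name, and the genes described here are that family together with the receptors through which *DKK1* acts. They were taken by gene symbol from the deposited expression table, and 10 of its 62703 listed genes were members: *DKK1*, *DKK2*, *DKK3*, *DKK4* and *DKKL1* as ligands, *LRP5*, *LRP6*, *KREMEN1* and *KREMEN2* as the receptors of the Wnt pathway, and *CKAP4* as a separate receptor of *DKK1*. The mRNA of PANC-1 cells, an established line of human pancreatic cancer, was sequenced in 3 biological replicates of unedited cells (DKK1-SE+/+) and in 3 of cells in which CRISPR-Cas9 had removed e1, a component enhancer of the super-enhancer DKK1-SE, from both alleles (DKK1-SE-/-). The DKK1-SE-/- cells are 1 clone, so the e1 deletion and any other property of that clone cannot be told apart, and the p-values below measure the spread between these samples. Libraries held between 16475810 and 21822314 expected counts, which are estimated read counts per gene that need not be whole.

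Canonical Wnt signalling begins when a Wnt ligand joins a Frizzled receptor and the co-receptor *LRP5* or *LRP6* at the cell surface, after which beta-catenin is no longer degraded and enters the nucleus. *DKK1*, *DKK2* and *DKK4* bind *LRP5* and *LRP6*, and *KREMEN1* and *KREMEN2* bind DKK proteins as well and can take the complex from the surface, whereas *DKK3* is a divergent member that does not block *LRP6* in the same way and *DKKL1* is related to *DKK3*. *CKAP4*, a membrane protein of the endoplasmic reticulum that also reaches the cell surface, binds *DKK1* and is known for signalling through PI3K and AKT in pancreatic and other cancers.

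The deleted segment is shown first because it defines the genotype. It lies on chromosome 10 beyond the 3′ end of *DKK1*, 128 kb from the start of that gene, and overlaps 0 annotated genes. The hg38 sequence between the outer ends of the Cas9 targets (2088 bases) was searched for TGANTCA, a pattern of the AP-1 transcription factors that reads the same on both strands, and 4 matches were found. Of 63769 windows of the same length along chromosome 10, 48.4% held at least 1 match and 0.853% held at least 4. The matches are printed from the plus strand of hg38, 5′ to 3′, with the 7 matching bases in capitals and 20 bases on either side.
Match 1, chr10:52443491-52443537: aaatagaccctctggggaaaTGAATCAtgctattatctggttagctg
Match 2, chr10:52443727-52443773: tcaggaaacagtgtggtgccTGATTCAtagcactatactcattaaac
Match 3, chr10:52443957-52444003: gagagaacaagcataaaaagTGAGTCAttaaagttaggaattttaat
Match 4, chr10:52444030-52444076: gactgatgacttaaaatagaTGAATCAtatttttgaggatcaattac
Match 3 alone had C or G at the central base (TGACTCA or TGAGTCA), a form present in 28.2% of the windows. A match is a description of the letters, and binding was not measured here.

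*DKK1* had a TPM (a transcript level corrected for gene length and scaled to the same total in each library) of 229.2 in DKK1-SE+/+ replicate 1, 245.8 in replicate 2 and 198.5 in replicate 3. The DKK1-SE-/- values were 66.8, 79.8 and 82.7 in the same order of replicates. All DKK1-SE-/- libraries lay below all DKK1-SE+/+ libraries, with a wide gap between the groups. Bulk RNA cannot separate fewer cells with the transcript from less of it in each cell. The mean fell from 224.5 ± 24.0 to 76.4 ± 8.47 (SD, n = 3), and *DKK1* went from rank 524 to rank 1460 by mean TPM among the 15179 genes with enough counts to be tested. Its log2 fold change was -1.45 (95% interval -1.70 to -1.20, adjusted p = 6.15e-06). Here and below, fold changes and adjusted p-values are those of edgeR's quasi-likelihood F test on the counts, with Benjamini-Hochberg adjustment across the tested genes, and a gene is called when the adjusted p is under 0.05; the intervals are per gene and not adjusted. The exact permutation test of the TPM values gave p = 0.1 (two-sided), the smallest value that 3 samples against 3 can reach.

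The *DKK1* promoter is shown because this gene had the lowest fold change of the members tested. RefSeq promoters (GRCh38.p14, 250 bases before to 50 bases after the gene's start) were matched for 4 of the 10 members, namely *DKK1*, *DKKL1*, *LRP5* and *CKAP4*. They were searched on both strands for TGANTCA, for CTTTGAT, a pattern of the TCF and LEF factors that act with beta-catenin, and for the TATA box pattern TATAAA. These patterns were present in 7.71%, 2.62% and 11.5% of all 35116 promoters. TGANTCA and CTTTGAT had 0 matches in the promoters of the 4 members, and TATAAA had 1 match, in *DKK1*, which is in capitals below and starts at position -30 relative to the gene's start. The sequence is on the plus strand, 5′ to 3′.
*DKK1* promoter, chr10:52314031-52314330: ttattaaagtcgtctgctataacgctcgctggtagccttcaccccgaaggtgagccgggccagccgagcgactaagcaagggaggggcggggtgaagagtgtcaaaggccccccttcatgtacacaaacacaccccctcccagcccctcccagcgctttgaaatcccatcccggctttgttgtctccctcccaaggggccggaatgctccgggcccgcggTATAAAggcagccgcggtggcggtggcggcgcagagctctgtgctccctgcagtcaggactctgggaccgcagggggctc

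**Figure D1:**
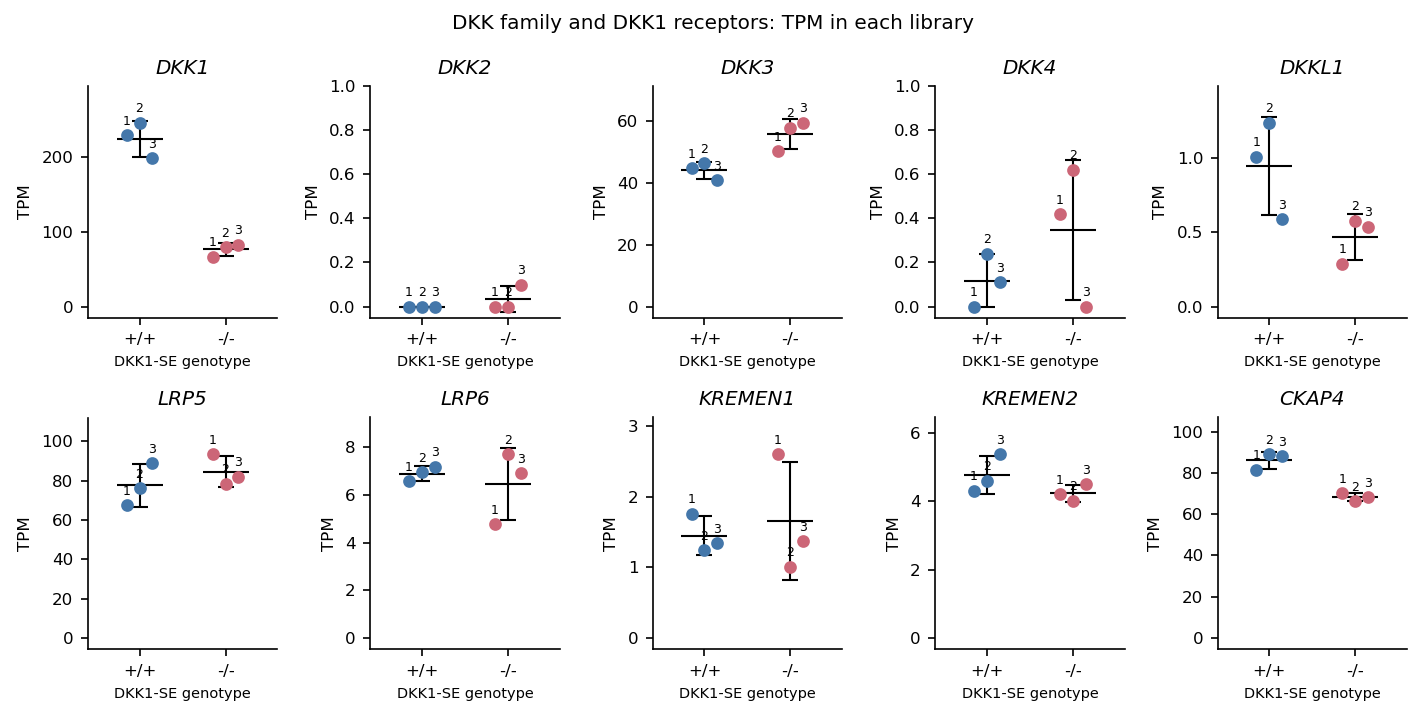
TPM of each of the 10 genes (vertical axis) in the 3 DKK1-SE+/+ and the 3 DKK1-SE-/- libraries (numbered points), with the mean and SD of each group in black and a separate scale for each gene. *DKK1* lay between 198.5 and 245.8 in DKK1-SE+/+ and between 66.8 and 82.7 in DKK1-SE-/- cells, whereas the groups overlapped for *LRP5*, *LRP6*, *KREMEN1* and *KREMEN2*.

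*DKK3* was the only other DKK gene that reached 2 TPM in any library. It measured 44.7, 46.4 and 41.0 TPM in DKK1-SE+/+ replicates 1, 2 and 3, against 50.2, 57.8 and 59.5 in the DKK1-SE-/- replicates. Each DKK1-SE-/- library was above each DKK1-SE+/+ library, although the nearest values were 3.78 TPM apart. The log2 fold change of 0.49 (95% interval 0.26 to 0.72) corresponded to 1.41 times the DKK1-SE+/+ level (adjusted p = 0.00369). *DKK3* was called in each of 15 alternative analyses, with the largest adjusted p at 0.0496 in limma on log2(TPM + 0.1) and the smallest at 0.000244 in DESeq2. Its annotated span shares 5681 bases with *USP47* on the opposite strand, a deubiquitinase gene that fell (log2 fold change -0.49, adjusted p = 0.0392). The libraries were stranded, but whether counting used the strand is not given in the sources used here, so reads of overlapping antisense genes cannot be told apart. For *DKK1* this concerns 227 bases shared with *PRKG1-AS1*, at 3.06 ± 0.312 and 2.07 ± 0.941 TPM (SD, n = 3).

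The remaining DKK genes were near the limit of detection. *DKK2* had 0 counts in 5 libraries and 1 count in DKK1-SE-/- replicate 3. *DKK4* had 0, 2 and 1 counts in DKK1-SE+/+ and 4, 7 and 0 counts in DKK1-SE-/- replicates 1, 2 and 3. Its summed counts differed by a factor of 3.79, with a 95% counting interval from 1.00 to 21.1, but the groups overlapped because 1 library of each held no count. For *DKK2* and *DKK4*, a count of 0 in a library still allows up to 3 counts, or between 0.137 and 0.182 CPM (counts scaled to library size), and such limits and intervals cover counting error only.

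*DKKL1*, best known from the testis, had 11, 11 and 6 counts in DKK1-SE+/+ and 3, 7 and 4 counts in DKK1-SE-/- libraries. Its TPM of 0.590 to 1.24 against 0.290 to 0.580 did not overlap between the groups by a margin of 0.01 TPM. The counts overlapped. *DKK2*, *DKK4* and *DKKL1* did not pass the filter on low counts. In a fit with no filter beyond a summed count of 1 their adjusted p-values were 0.589, 0.407 and 0.467 (edgeR), so no difference was detected at this depth.

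The family's composition changed with these levels. Summed over *DKK1* to *DKK4*, DKK transcripts amounted to 268.7 ± 26.8 TPM in DKK1-SE+/+ and 132.6 ± 13.3 TPM in DKK1-SE-/- cells (SD, n = 3). *DKK1* made up 83.7%, 84.0% and 82.9% of this sum in the unedited replicates 1, 2 and 3. The edited replicates had 56.9%, 57.7% and 58.1%. The SD of these shares was 0.603 and 0.633 percentage points within the groups, which did not overlap. The TPM of *DKK1* was 5.09 ± 0.225 times that of *DKK3* in DKK1-SE+/+ and 1.37 ± 0.0320 times in DKK1-SE-/- cells (SD, n = 3). By counts, the share of *DKK1* was 73.3% and 41.7%, so *DKK3* was the larger in edited cells, and the order of the genes there depends on the length assigned to each. For *DKK3* the deposited values imply lengths of 2503 to 2970 bases, against 1326 listed. Per library, *DKK3* was 6.17 to 15.5 TPM above the DKK1-SE+/+ mean in the edited clone, while *DKK1* was 141.9 to 157.8 TPM below its own mean there.

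**Figure D2:**
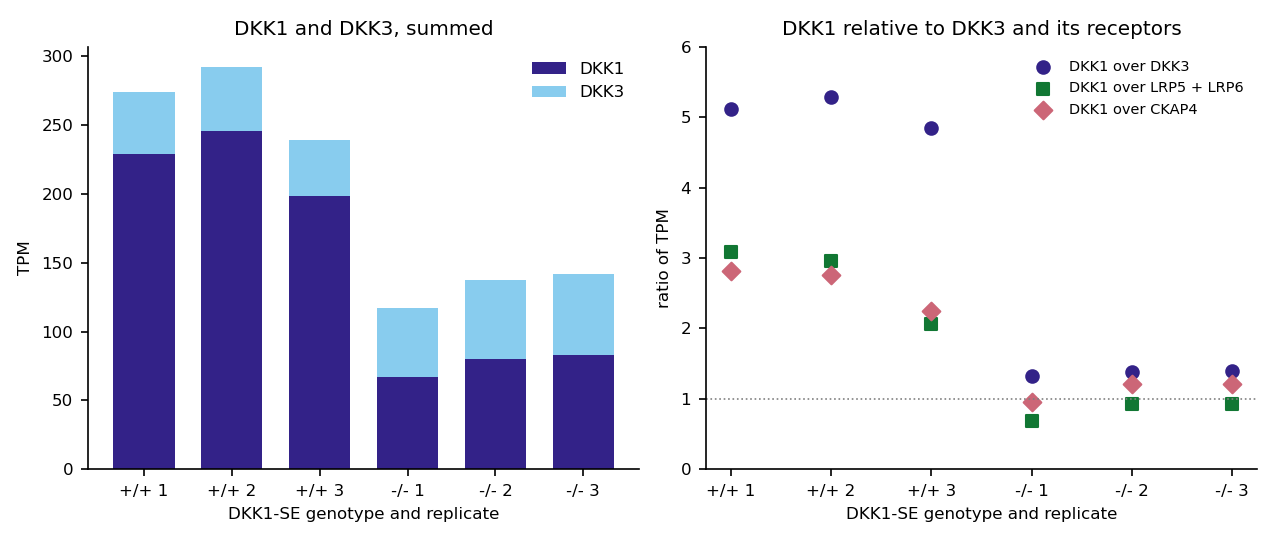
Left, stacked bars of the TPM of *DKK1* and *DKK3* in each library; right, the ratio of the TPM of *DKK1* to that of *DKK3* (circles), of *LRP5* and *LRP6* summed (squares) and of *CKAP4* (diamonds), with a dotted line at 1. The ratio to *DKK3* was 4.85 to 5.29 in DKK1-SE+/+ and 1.33 to 1.39 in DKK1-SE-/- libraries.

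*LRP5* was the more abundant co-receptor in all 6 libraries. It measured 67.6, 76.3 and 89.0 TPM in DKK1-SE+/+ and 93.5, 78.5 and 82.0 TPM in DKK1-SE-/- replicates 1, 2 and 3. The groups overlapped, and DKK1-SE+/+ replicate 3 was above 2 of the DKK1-SE-/- libraries. The log2 fold change was 0.28 (95% interval 0.01 to 0.56) with an adjusted p of 0.0973, so *LRP5* was not called, and an increase beyond 0.56 was outside the interval. The estimate was -0.05 with a GC-content offset, which removes each library's trend with the base composition of genes. *LRP5* was called when DKK1-SE-/- replicate 3 was left out (log2 fold change 0.34, adjusted p = 0.0304, over a range of 0.0304 to 0.716 in the alternatives). Without DKK1-SE-/- replicate 1 the log2 fold change was 0.15 (adjusted p = 0.323). In limma on log2(TPM + 1) it was 0.13 (adjusted p = 0.469).

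*LRP6*, the co-receptor most studied as a target of *DKK1*, was present at lower levels. Replicates 1, 2 and 3 had 6.56, 6.94 and 7.18 TPM in unedited cells, against 4.77, 7.70 and 6.91 TPM in the edited clone. The lowest and the highest of the 6 values were both from the edited clone, so the groups overlapped by TPM. By expected counts, with library size not considered, they did not (669 to 809 against 442 to 652). The log2 fold change was -0.22 (95% interval -0.51 to 0.07, adjusted p = 0.212), and it was 0.01 with the GC-content offset. Without DKK1-SE-/- replicate 3 it was -0.33 and called (adjusted p = 0.0320, over a range of 0.0320 to 0.963 in the alternatives). When DKK1-SE-/- replicate 1 was left out instead, the log2 fold change was -0.12 (adjusted p = 0.431). *LRP5* exceeded *LRP6* by a factor of 11.2 ± 1.06 in DKK1-SE+/+ and 13.9 ± 5.01 in DKK1-SE-/- cells (SD, n = 3), a difference smaller than the spread.

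The balance of ligand to co-receptor moved with *DKK1*. The TPM of *DKK1* was 3.09, 2.95 and 2.06 times that of *LRP5* and *LRP6* together in DKK1-SE+/+ replicates 1, 2 and 3. In the DKK1-SE-/- replicates this ratio was 0.680, 0.925 and 0.929. *DKK1* transcripts thus outnumbered those of its co-receptors in each unedited library and in 0 of the 3 edited ones. Transcript ratios are not protein ratios, and secreted *DKK1* was not measured here.

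*KREMEN1* and *KREMEN2* were both low. *KREMEN1* had 75, 64.6 and 79 expected counts in DKK1-SE+/+ and 126, 104 and 84 in DKK1-SE-/- replicates 1, 2 and 3. The counts of the groups did not overlap, yet the TPM did, with 1.76, 1.24 and 1.34 against 2.60, 1.01 and 1.37. The count-based log2 fold change was 0.64 (95% interval 0.15 to 1.14, adjusted p = 0.0419), and *KREMEN1* was called. On log2(TPM + 1) with limma it was 0.08 (adjusted p = 0.813, over a range of 0.0170 to 0.862 in the alternatives). The length by which a count was divided to give TPM, worked out from the ratio of the deposited values in each library, was 3266, 5447 and 5418 bases for *KREMEN1* in DKK1-SE+/+ and 4520, 8059 and 5882 bases in DKK1-SE-/- replicates. For *CKAP4* this length stayed between 3831 and 3893 bases. For *LRP6* it was 6627 bases in DKK1-SE-/- replicate 2, the library with its highest TPM, and between 8643 and 10086 bases in the others. The assigned transcript lengths of *KREMEN1* and *LRP6* therefore differed between libraries, and their part in the difference between the scales was not tested.

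The call of *KREMEN1* was also lost in most other alternatives. The adjusted p was 0.133 with the GC-content offset (log2 fold change 0.38) and 0.0616 with library size alone (0.57). Leaving out 1 unedited library at a time gave 0.142, 0.0928 and 0.0656 (DKK1-SE+/+ replicates 1, 2 and 3), with log2 fold changes of 0.55, 0.66 and 0.72, so the estimate stayed near 0.64. Leaving out DKK1-SE-/- replicate 1 or 2 gave 0.175 or 0.0608, with log2 fold changes of 0.39 and 0.72. *KREMEN1* was called in 4 of the 15 alternatives.

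*KREMEN2* measured 4.31, 4.60 and 5.37 TPM in DKK1-SE+/+ and 4.20, 4.01 and 4.50 TPM in DKK1-SE-/- replicates 1, 2 and 3. The groups overlapped. The interval of its log2 fold change reached from -0.36 to 0.36 (adjusted p = 0.996), and *KREMEN2* was called in 0 of the 15 alternatives. The estimate was -0.39 with the GC-content offset (adjusted p = 0.0623, over a range of 0.0623 to 0.990 in the alternatives), and *KREMEN2* has one of the most GC-rich transcripts, at 68.8% and above 99.4% of tested genes. Its annotated span shares 357 bases with the antisense gene *PKMYT1*, a cell cycle kinase gene that rose (log2 fold change 0.58, adjusted p = 0.0121). Together the KREMEN genes summed to 6.21 ± 0.451 TPM in DKK1-SE+/+ and 5.90 ± 0.890 TPM in DKK1-SE-/- cells (SD, n = 3).

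*CKAP4* overlapped *LRP5* in TPM in unedited cells, and in edited cells every *CKAP4* value was below every *LRP5* value. The unedited replicates 1, 2 and 3 had 81.5, 89.0 and 88.1 TPM, and the edited ones 70.2, 66.3 and 68.3 TPM. Every edited library was below every unedited one by TPM. On counts, the log2 fold change was -0.18 (95% interval -0.40 to 0.04, adjusted p = 0.183), and *CKAP4* was not called. It was called at -0.43 with the GC-content offset (adjusted p = 0.000564), at -0.33 in limma on log2(TPM + 1) (adjusted p = 0.0251) and at -0.25 with library size alone (adjusted p = 0.0452), within a range of 0.000564 to 0.413 over the alternatives. The 15 alternative estimates were all negative, and whether *CKAP4* passed the threshold depended on the scaling. The limma fit, which changes the method as well as the measure, shifted the median of all tested genes by -0.11 on the log2 scale against the count-based fit, so -0.22 of the -0.33 lay beyond that shift. The ratio of *DKK1* to *CKAP4* was 2.61 ± 0.309 in DKK1-SE+/+ and 1.12 ± 0.147 in DKK1-SE-/- cells (SD, n = 3), with *DKK1* below *CKAP4* in DKK1-SE-/- replicate 1 (0.952).

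**Figure D3:**
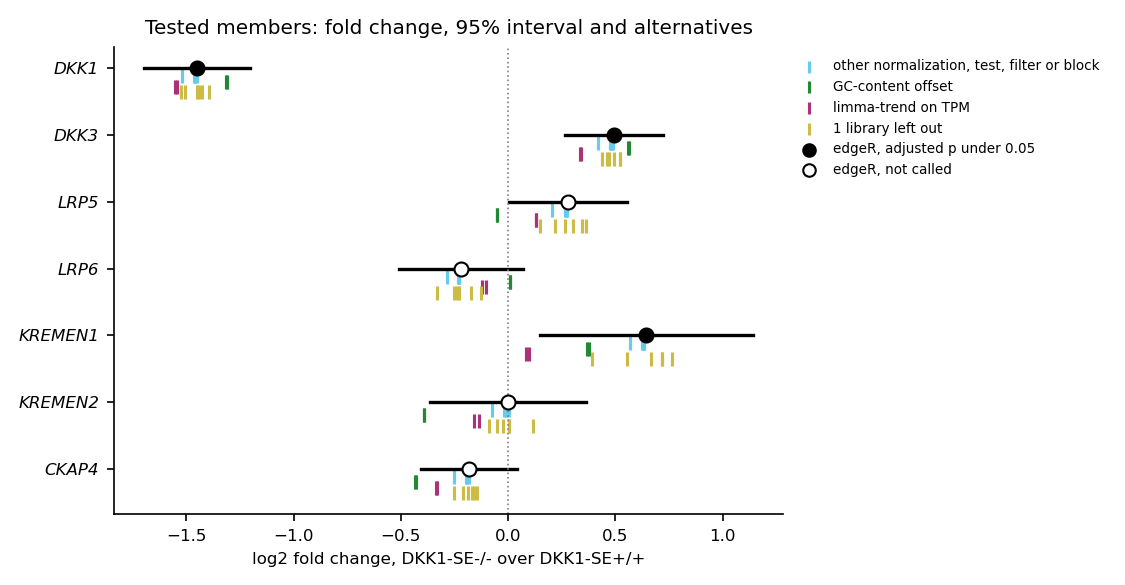
Log2 fold change of the 7 tested members, DKK1-SE-/- over DKK1-SE+/+ (horizontal axis), with the 95% interval of edgeR's test as a black line and each alternative as a coloured tick. *DKK1* and *DKK3* kept their direction and call in all 15 alternatives, while *LRP5*, *LRP6* and *KREMEN2* crossed 0 in some and *KREMEN1* and *CKAP4* changed their call.

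Of the 10 members, 7 were tested and 3 were called, *DKK1* as lower and *DKK3* and *KREMEN1* as higher. That is 42.9% of the tested members, close to the 39.3% of all tested genes that were called (19.8% higher and 19.5% lower in DKK1-SE-/- cells), so the number of calls does not set the members apart. With an unadjusted p under 0.05 and a log2 fold change of 1.2 or more in size as the rule, *DKK1* was the 1 member called, against 8.66% of tested genes. Without DKK1-SE-/- replicate 3 the number of members called was 5, with *LRP5* and *LRP6* added, but the number of all genes called also rose in that fit, from 5972 to 7518 of 15179. The TPM ranges of the groups did not overlap for *DKK1*, *DKK3* and *CKAP4* among the tested members, against 44.2% of tested genes.

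Other members also overlap annotated genes. *DKKL1* shares 675 bases with the antisense gene *TEAD2*, a transcription factor of the Hippo pathway that rose (log2 fold change 0.52, adjusted p = 0.0157). *CKAP4* overlaps *TCP11L2*, at 0.987 ± 0.212 and 1.53 ± 0.936 TPM, and the lncRNA ENSG00000286147 within *DKK2* was at 4.51 ± 0.872 and 3.83 ± 1.19 TPM (SD, n = 3), neither of them called. The other genes overlapping *DKK2* (*RAC1P5* and ENSG00000251081), *DKKL1* (ENSG00000268686), *KREMEN1* (ENSG00000226772 and *RNU6-810P*), *LRP6* (*RNU6-545P*, *RPL21P100*, *BCL2L14* and ENSG00000270857) and *CKAP4* (ENSG00000258355, ENSG00000277715 and *RNU7-94P*) had too few counts to be tested.

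Ordered by mean TPM, DKK1-SE+/+ cells had *DKK1* first, then *CKAP4* and *LRP5*, whose ranges overlapped, then *DKK3*, *LRP6*, *KREMEN2*, *KREMEN1*, *DKKL1*, *DKK4* and *DKK2*. *KREMEN1* and *DKKL1* overlapped, as did *DKK4* and *DKK2*, and the other neighbours in this order did not. In DKK1-SE-/- cells *LRP5*, *DKK1* and *CKAP4* came first, and each overlapped its neighbour. *DKK1* was the highest member in all 3 unedited libraries and in DKK1-SE-/- replicates 2 and 3, while *LRP5* was the highest in DKK1-SE-/- replicate 1.

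Fold changes were related to GC content across all tested genes (Spearman's rho = 0.40, genes not being independent replicates), which bears on the members because their transcripts range from 40.9% GC in *LRP6* to 68.8% in *KREMEN2*. *DKK1*, at 43.7%, fell with the GC-content offset as well (log2 fold change -1.31). Its part in the smaller differences of *LRP5*, *LRP6*, *KREMEN1*, *KREMEN2* and *CKAP4* was not tested beyond the offset itself.

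The members lie on 8 chromosomes, and their neighbours moved in different directions. Within 5 Mb of *DKK1*, the median log2 fold change of the 31 other genes tested was 0.63, with 14 called higher and 1 lower, so *DKK1* went against these genes. In DKK1-SE-/- replicates 1, 2 and 3 against the DKK1-SE+/+ mean, on log2 counts scaled by library total alone, the median was 0.29, 0.33 and 0.54. It was 0.15 over the 8 genes within 2 Mb, with 1 called higher and 1 lower, and there the replicates had -0.15, 0.09 and 0.24, so the nearest window was not opposite to *DKK1* in every library. Over the 79 genes within 10 Mb it was 0.45. The 45 tested genes within 5 Mb of *DKK4*, on chromosome 8, had a median of -0.92, and 34 of them were called lower. This median was -1.02, -0.96 and -0.86 in DKK1-SE-/- replicates 1, 2 and 3 against the DKK1-SE+/+ mean. *DKK4* itself, at 0 to 7 counts, was too low to be compared with them.

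Within 5 Mb of the other members the medians were 0.49 for *KREMEN2*, 0.34 for *LRP5*, 0.23 for *DKKL1*, 0.17 for *KREMEN1*, 0.13 for *LRP6*, -0.02 for *CKAP4*, -0.05 for *DKK3* and -0.18 for *DKK2*, beside 0.03 over all tested genes. *LRP5* (0.28) was near its surroundings, whereas *KREMEN2* (-0.00) was below and *DKK3* (0.49) above theirs. Within 2 Mb the medians around *KREMEN2* (0.47), *LRP6* (0.27), *DKKL1* (0.22) and *LRP5* (0.18) were above that around *DKK1* (0.15). Against the DKK1-SE+/+ mean, these medians were all above that around *DKK1* in DKK1-SE-/- replicates 1 and 2, but not in replicate 3. There *DKKL1* (-0.05) and *LRP5* (-0.06) had medians below that around *DKK1* (0.24), while *KREMEN2* (0.25) and *LRP6* (0.28) stayed above it. The sign of the median around *DKK3* depended on the distance, at -0.12 within 2 Mb and 0.09 within 10 Mb.

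**Figure D4:**
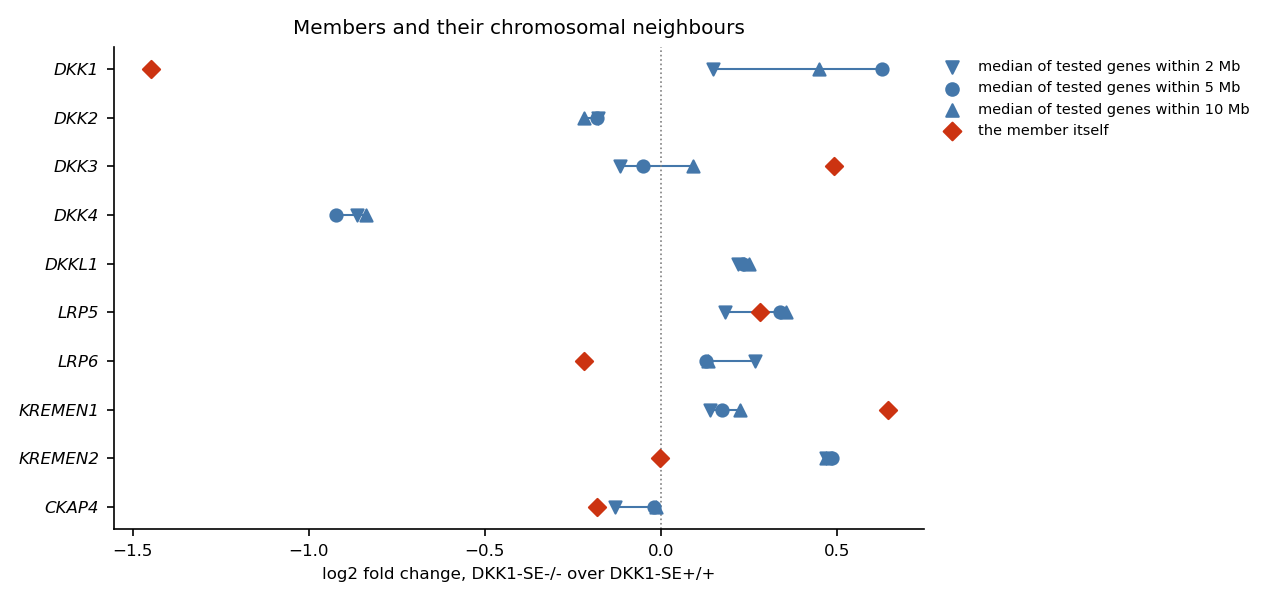
Log2 fold change, DKK1-SE-/- over DKK1-SE+/+, of each tested member (diamonds) and the median over the tested genes within 2, 5 and 10 Mb of each of the 10 members (triangles and circles). *DKK1*, at -1.45, was opposite in sign to the medians of the fit around it (0.15 to 0.63), and the medians around *DKK4* were between -0.92 and -0.84.

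The 5 tested genes whose pattern over the 6 libraries was most like that of *DKK1*, by the root mean square (RMS) difference of centred log2(TPM + 1), were *SH2D4A* (0.0838), *ATP6V1B2* (0.0983), *FLRT2* (0.0999), *DCTN6* (0.103) and *SFR1* (0.104), with the RMS difference in parentheses. *SH2D4A*, *ATP6V1B2* and *DCTN6* lie on chromosome 8, *FLRT2* on chromosome 14 and *SFR1* on chromosome 10. *SH2D4A* went from 30.8 ± 2.30 to 9.91 ± 1.47 TPM (SD, n = 3). That their log2 fold changes (-1.63 to -1.28) are near that of *DKK1* follows from this choice.

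The other genes of the pathway were read from 10 lists, beside 39.3% called (19.8% higher and 19.5% lower) and a median log2 fold change of 0.03 over all tested genes. The lists were not separated by chromosomal position, so any genes within the windows around the members, such as those around *DKK4*, are included. The list of secreted Wnt antagonists outside the DKK family had 7 of 17 genes tested, and 1 was called higher and 4 lower. That is 71.4% beside those 39.3%, with a median log2 fold change of -1.12. *SFRP1*, a decoy for Wnt ligands, fell from 57.5 ± 2.55 to 12.9 ± 2.02 TPM (SD, n = 3; log2 fold change -2.03, adjusted p = 4.29e-07). *GREM1* had 90, 55.1 and 88 counts in DKK1-SE+/+ and 1, 0 and 0 in DKK1-SE-/- libraries, a ratio of 225.5 with a 95% counting interval from 40.1 to 8944. *SERPINF1* rose (1.54), *DRAXIN*, named after its values were seen, fell (-1.59), and *IGFBP4*, the most abundant of the list, fell by 0.48 on the log2 scale. The call of *IGFBP4* was lost without DKK1-SE+/+ replicate 2 (adjusted p = 0.0586) or 3 (0.0688). Besides *DKK1*, 4 genes of this list were thus called lower in the edited clone and *SERPINF1* higher, while *DKK3*, which is not in the list, was also called higher.

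Among Frizzled and other Wnt receptors, the partners of *LRP5* and *LRP6*, 14 of 16 genes were tested, with 2 called higher and 9 lower, or 78.6% beside the 39.3% of all tested genes, and a median of -0.85. *FZD6* (-1.98) and *ROR1* (-1.03) fell, and *FZD2* (1.22) and *FZD9* (2.19, at 2 to 6 counts in DKK1-SE+/+ libraries) rose. *RYK*, the most abundant of them, had -0.44, a call that ended without DKK1-SE+/+ replicate 2 (adjusted p = 0.0674) or DKK1-SE-/- replicate 2 (0.0526), and 0.05 with the GC-content offset. Of the Wnt ligands 9 of 19 were tested, with *WNT4* and *WNT5B* called higher and *WNT3*, *WNT7B* and *WNT11* (named after its values were seen) lower, around a median of -0.47. *WNT5B*, the most abundant, was called in 3 of the 15 alternatives and *WNT11*, at 2 to 14 counts, in 6, and *WNT7B* was not called without DKK1-SE+/+ replicate 2 (adjusted p = 0.0556) or 3 (0.0517). This count of 5 fell to 2 without DKK1-SE+/+ replicate 2 or 3 and to 3 without DKK1-SE+/+ replicate 1 or DKK1-SE-/- replicate 1 or 2. In the R-spondin axis, which sets how much Frizzled and *LRP6* stays on the surface, 2 of 9 genes were tested: *LGR4* rose (0.87) and *ZNRF3* fell (-0.58, but with an adjusted p of 0.124 in limma on log2(TPM + 1)), for a median of 0.15.

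The list of proteins that fold, carry or remove *LRP5* and *LRP6* had 14 of 15 genes tested, and 3 were called higher and 1 lower, a share of 28.6% with a median of -0.01. *CAV1*, a caveolar coat protein through which *LRP6* can be internalised, rose from 233.7 ± 8.88 to 482.7 ± 53.6 TPM (SD, n = 3; log2 fold change 1.11, adjusted p = 1.82e-05). *DAB2* (0.71) and *LRPAP1* (0.44, named after its values were seen) were the other genes called higher, and *RAB8B* fell (-0.94). The count of 4 was 2 without DKK1-SE+/+ replicate 2 or 3 and 7 with the GC-content offset (5 higher and 2 lower), and in limma on either TPM scale 1 was called higher and 3 lower, the reverse balance. *LRPAP1* was called in 9 of the 15 alternatives, and the call of *DAB2* ended without DKK1-SE+/+ replicate 1 (adjusted p = 0.0557), 2 (0.0563) or 3 (0.0545) or DKK1-SE-/- replicate 3 (0.0539). *DAB2* was also not called in limma on log2(TPM + 1), with a log2 fold change of 0.41 (adjusted p = 0.128). On log2(TPM + 0.1) limma gave 0.62 (adjusted p = 0.158).

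Downstream of *LRP5* and *LRP6*, 8 of 27 tested genes of the destruction complex and its transducers were called higher and 9 lower, with a median of -0.01 and a count that went from 17 to 11 and 10 without DKK1-SE+/+ replicates 1 and 2 and to 9 (2 higher and 7 lower) in limma on either TPM scale. With the GC-content offset 5 were called higher and 12 lower. *AXIN1* (0.78) and *GSK3B* (0.96) rose, and *AXIN2* (-1.64) and *PYGO1* (-1.51) fell. *CSNK1D*, the most abundant of the list over both groups together, rose (0.42) and was called in 9 of the 15 alternatives. Of 23 common Wnt target genes 14 were tested, with *LEF1* called higher (1.64, with an adjusted p of 0.0782 in limma on log2(TPM + 1)) and 7 lower, among them *AXIN2* and *BMP4* (-4.56), around a median of -0.36. *AXIN2*, a feedback inhibitor that is also a widely used readout of beta-catenin signalling, went from 1.47 ± 0.172 to 0.570 ± 0.154 TPM (SD, n = 3). *CD44*, the most abundant target, was not called (-0.18) except without DKK1-SE-/- replicate 3 (adjusted p = 0.0408).

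The list of relatives of *LRP5* and *LRP6* by protein family had 12 of 14 genes tested, with 3 called higher and 7 lower and a median of -0.37. *LRP12* (-0.62) and *LRP11* (-0.38) fell, although the call of *LRP11* was lost without DKK1-SE+/+ replicate 2 (adjusted p = 0.0607) and that of *LRP12* with the GC-content offset (0.185). *LRP1*, *LRP10* (named after its values were seen, called in 6 of the 15 alternatives) and *LRP2* were the genes called higher, but *LRP1* not without DKK1-SE+/+ replicate 1 (adjusted p = 0.117) or 2 (0.127) or DKK1-SE-/- replicate 1 (0.0797). *LRP2* had 3 counts in the DKK1-SE+/+ libraries together and 70 in the DKK1-SE-/- libraries. The count of 10 was 4, 3 and 5 without DKK1-SE+/+ replicates 1, 2 and 3 and 5 without DKK1-SE-/- replicate 2.

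Around *CKAP4*, 17 of 19 proteins that shape the endoplasmic reticulum were tested, with 2 called higher and 8 lower and a median of -0.26. With the GC-content offset 5 were called higher and 8 lower. Limma on either TPM scale called 1 higher and 6 lower. *RTN4*, the most abundant, fell from 469.9 ± 19.9 to 291.4 ± 40.5 TPM (SD, n = 3; log2 fold change -0.55, adjusted p = 0.00119), *ATL2* fell (-0.84), and *SEC61A1* (0.94) and *RTN3* (0.44, but 0.27 with an adjusted p of 0.0528 in limma on log2(TPM + 1)) rose. Of the 17 genes of PI3K and AKT signalling, all tested, 5 were called higher and 5 lower around a median of 0.03. *PIK3R1* fell (-0.71, but -0.33 with an adjusted p of 0.312 in limma on log2(TPM + 1)), while *INPP4B* (0.94) and *PIK3CD* (0.60) rose. *AKT2*, the most abundant gene of the list, was not called (0.15), and the number called in the list, 10, was 6 without DKK1-SE+/+ replicate 2 and 3 (2 higher and 1 lower) in limma on either TPM scale.

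With edgeR's test, 83.3% of tested genes were called among the relatives of *LRP5* and *LRP6*, 63.0% in the destruction complex list and 57.1% of targets. The share was 58.8% for the endoplasmic reticulum, 58.8% for PI3K and AKT, 55.6% for Wnt ligands and 100% for the R-spondin axis (2 genes). These stand beside 39.3% of all tested genes. The sizes of the fold changes and medians depended on the fit. Over the 15 alternatives the medians of the lists ranged from -1.63 to -0.55 (antagonists), -1.01 to -0.67 (Frizzled and others), -0.58 to -0.20 (Wnt ligands), 0.05 to 0.20 (R-spondin axis, on 2 genes), -0.11 to 0.11 (folding and trafficking), -0.17 to 0.02 (destruction complex), -0.51 to -0.31 (targets), -0.47 to -0.30 (relatives of *LRP5* and *LRP6*), -0.49 to -0.16 (endoplasmic reticulum) and -0.09 to 0.08 (PI3K and AKT). With the GC-content offset *AXIN1* was at 0.43, *RAB8B* at -0.50, *ATL2* at -0.48, *PIK3CD* at 0.35, *PIK3R1* at -0.41, *CSNK1D* at 0.16, *WNT5B* at 0.14, *LRP1* at 0.09 and *LRP12* at -0.16, each smaller, and *IGFBP4* at -0.82, *WNT7B* at -0.88 and *INPP4B* at 1.41 were larger. In limma on log2(TPM + 1) *AXIN2* was at -0.65, *BMP4* at -2.26, *FZD9* at 0.45, *FZD2* at 0.81, *WNT4* at 0.54, *LEF1* at 0.62 and *SERPINF1* at 1.00, while *GSK3B* was at 1.46. *DRAXIN* was at -0.55 in the same fit.

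**Figure D5:**
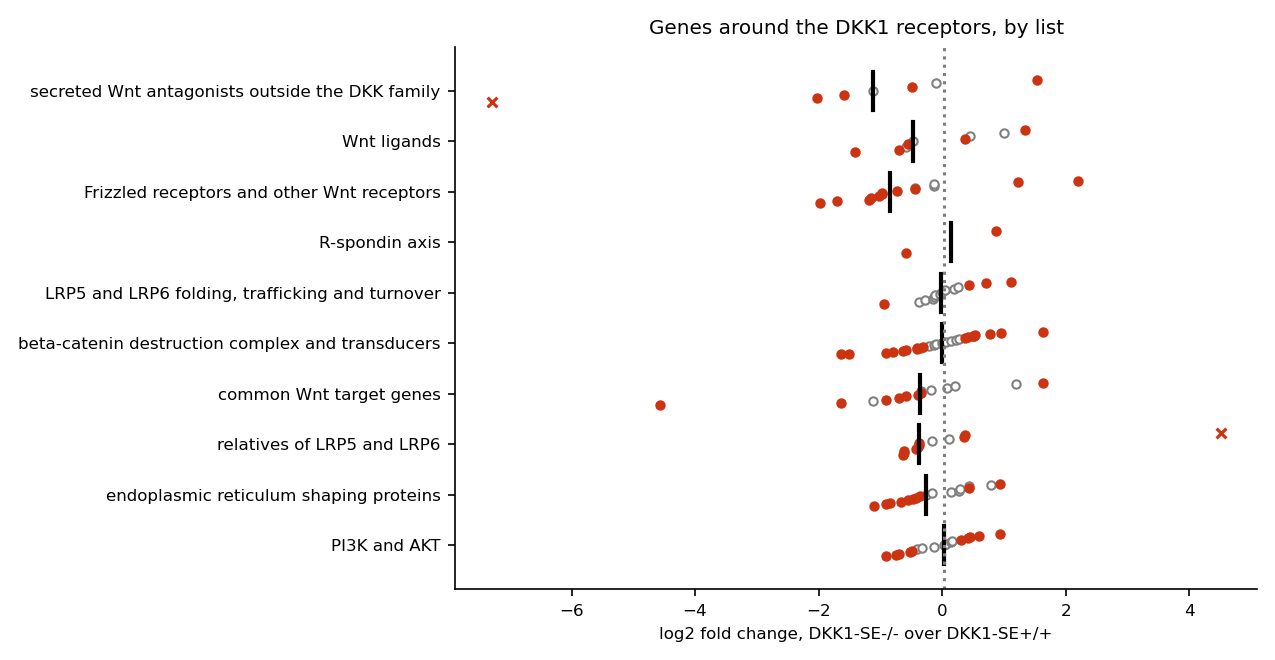
Log2 fold change of each tested gene (horizontal axis) in the 10 lists, with called genes in red, others open, the median of each list as a black bar and the median of all tested genes (0.03) as a dotted line. *GREM1* and *LRP2*, drawn as crosses, had 1 and 3 counts in one of the groups, so their fitted values give no size; the medians of the lists lay between -1.12 and 0.15.

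The labelled cell line was checked by markers. Of 7 ductal or epithelial markers, 6 had at least 1 TPM in all 6 libraries, and *KRT8*, the most abundant, measured 957.0 ± 27.2 TPM in DKK1-SE+/+ and 1560 ± 171 TPM in DKK1-SE-/- cells (SD, n = 3). The 7 did not move together: *KRT8*, *KRT18* and *KRT19* were called higher and *SOX9* (-0.39, called in 11 of the 15 alternatives) and *EPCAM* (-0.67, called in 5 of the 15 alternatives) lower. Of the 3 mesenchymal markers, *VIM*, at 4159 ± 390 and 2684 ± 143 TPM (SD, n = 3), and *CDH2* (-3.85) fell, whereas *FN1* rose by 2.70 on counts, with 1.58 ± 0.457 and 2.38 ± 1.23 TPM (SD, n = 3), a call lost in limma on either TPM scale. All 5 acinar, 4 islet and 3 endothelial markers were below 1 TPM, with *CPB1*, *CELA3A*, *PNLIP*, *INS* and *SST* at 0 in all libraries. Fibroblast and immune markers other than *COL1A1*, *CD68* and *CD14* were also below 1 TPM. The summed fibroblast markers gave 92.2, 102.8 and 103.9 TPM in DKK1-SE+/+ and 12.4, 9.40 and 16.2 TPM in DKK1-SE-/- replicates 1, 2 and 3, and the summed immune markers 43.8, 41.1 and 47.0 against 68.9, 66.4 and 68.6 TPM. *COL1A1*, at 98.7 ± 6.72 and 12.3 ± 3.61 TPM, fell and *CD68*, at 43.5 ± 2.81 and 66.6 ± 1.61 TPM (SD, n = 3), rose, and their part in the differences of the members was not tested.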

How the data were processed

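The samples are 3 DKK1-SE+/+ and 3 DKK1-SE-/- libraries of PANC-1 cells, grouped by the labels. The deposited table gives an expected count (not normalized) and a TPM value (normalized by the authors within each library) for each gene and library. Libraries were made with a stranded mRNA kit and analysed by the authors' service provider on hg38, per the labels and the paper's methods; the aligner, the counting program and the annotation are not given in the sources used here. The authors' own comparison in the table (fold changes, p-values and adjusted p-values) and their group means were not used. The deposited gene length was used to work out the length behind each TPM value: count over TPM, divided by the library's median of count over TPM and listed length, over tested genes with at least 5 TPM in all libraries.

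Of the nonzero expected counts, 32.3% were not whole (tolerance 1e-09), and all were rounded. They were analysed with edgeR 4.0.16 in R 4.3.3 with filterByExpr (minimum count 10), TMM factors, the quasi-likelihood F test and Benjamini-Hochberg adjustment over 15179 genes. Alternatives were RLE factors, library size alone, DESeq2 1.42.0, limma-trend (limma 3.58.1) of log2(TPM + 1) or log2(TPM + 0.1), no filter beyond a summed count of 1, a block for the replicate number, a GC-content offset per library in 40 bins of GC content, with and without the block, and each library left out. The fits were tested on simulated data. The exact permutation test was run in scipy 1.17.1 (Python 3.11.15). Total expected counts were 21822314, 16475810 and 18803154 in DKK1-SE+/+ and 17359835, 20098086 and 17804764 in DKK1-SE-/- replicates 1, 2 and 3.

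Gene positions and GC content came from GENCODE version 44. The ends of the e1 interval are those of the Cas9 targets in the paper's methods. The genes named are the 10 members, in each list the 2 called genes with the smallest p in each direction and the most abundant gene, the 5 tested genes most like *DKK1*, annotated genes overlapping a member, and, of the cell types with a marker at 1 TPM or more, the most abundant marker, with all called ductal and mesenchymal markers; 2 list genes that fit this rule are not reported here. The members and lists were chosen with earlier results of these data known.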

Additional observations from a re-analysis of the deposited data

How the results depend on the processing

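*DKK1* and *DKK3* kept their direction and their call under all 15 alternative fits, with log2 fold changes of -1.55 to -1.31 for *DKK1* and 0.33 to 0.56 for *DKK3*. The number of members called was 1 under the rule of an unadjusted p under 0.05 and a log2 fold change of 1.2 or more in size, and with each library left out it ranged from 2 to 5, where the number of all genes called ranged from 4002 to 7518 of 15179. The number of genes called was 1314 under that rule. By counts in place of TPM, *DKK1* made up 73.3% of the summed *DKK1* to *DKK4* in DKK1-SE+/+ and 41.7% in DKK1-SE-/- cells. This follows from the construction, since counts are not divided by length.

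The log2 fold change of *LRP5* was -0.0497 with the GC-content offset and -0.0500 with the offset and the replicate block. That of *LRP6* was 0.00828 and 0.00675 in these fits. *KREMEN2* was at 0.00536 with the replicate block and between -0.0872 and 0.116 with each library left out, against -0.00102. The cause was not tested. Limma on log2(TPM + 1) and log2(TPM + 0.1) shifted the median of all tested genes by -0.11 and -0.14 and called 1491 and 1493 genes higher and 2670 and 2632 lower, against 3013 and 2959.

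The replicate numbers did not pair the samples. The deviations of same-numbered libraries from their group means had correlations of -0.12, -0.07 and -0.11 across genes, and none of the 3 libraries of either group correlated best with its own number. With the replicate block, 2 members and 4982 genes were called, *DKK1* was at -1.45 and *DKK3* at 0.49, and *KREMEN1* had an adjusted p of 0.0687 (edgeR).

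Of the 160 counts of called genes in the lists under alternatives, 125 were within 1.5 times the main count. Of the 20 medians around members with another window, 13 moved by less than the SD between the DKK1-SE-/- libraries. *DKK2*, *DKK4* and *DKKL1* had at most 11 counts in any library, and no difference of these genes was detected at this depth.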
